A study of Mus musculus with 2 samples.

Results

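B cells that carry Ms4a1 were a small population among Cxcl12-GFP+ cells sorted from mouse femurs, and how they came into the sort was not tested. The 2 mice (Mouse #1 and Mouse #2, 1 library each) had the genotype Cxcl12(GFP/+); Cxcl12-iCreER; R26R(tdTomato/+), were injected with tamoxifen at postnatal day 21 and were examined at postnatal day 28. One Cxcl12 allele of each mouse carries GFP, and the tdTomato reporter is switched on by the tamoxifen-activated Cre recombinase driven by Cxcl12. Both mice belong to 1 group, so cell classes were compared with each other, by 1 sum of counts per class and mouse, and the mouse was the replicate. The labels call the sorted cells GFP+ bone marrow mesenchymal cells in one field and tdTomato+ in the protocol, so the labels leave the gate unclear. The libraries were sequenced to 54940400 and 88790688 unique molecular identifiers (UMIs, tags that count captured transcripts once).

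The B cells were chosen by measured values of 9 genes. A barcode counted as a cell when it held 1000 or more genes and no more than 15% of its UMIs were mitochondrial. A B cell had at least 5 UMIs per 10000 of Cd79a and Cd79b together, at least 2 UMIs of Ms4a1 and Fcmr together, fewer than 3 UMIs of Vpreb1 and Igll1 together, and fewer than 10 UMIs per 10000 of Adipoq, Lpl and Hp together. This rule took 75 of the 2750 cells of Mouse #1 (2.73%, with a 95% Wilson interval from 2.18 to 3.41%). It took 97 of the 4582 cells of Mouse #2 (2.12%, 1.74 to 2.58%), which makes 172 of 7332 in all. The mean share was 2.42% ± 0.432 (SD, n = 2). When at least 2000 genes and a mitochondrial part of no more than 10% were asked for together, the share was 0.886%. Intervals here cover counting error only.

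B lymphocytes are made in the bone marrow. Their precursors rearrange the immunoglobulin heavy chain and pair it with a surrogate light chain, encoded by the Vpreb genes and Igll1, in a pre-B cell receptor. After a light chain is made, immature B cells carry IgM, leave for the spleen as transitional cells, and in part return to the marrow as mature recirculating B cells. CXCL12, the chemokine whose gene marks the sorted stroma, retains B cell precursors through the receptor CXCR4.

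Ms4a1 (chromosome 19, 11249675 to 11266241, minus strand, GRCm38) encodes CD20, and Fcmr (chromosome 1, 130865669 to 130880791, plus strand) encodes the Fc receptor for IgM. Cd79a (chromosome 7, 24897381 to 24902197, plus strand) and Cd79b (chromosome 11, 106311341 to 106314762, minus strand) encode the signaling chains of the B cell receptor. All 4 are protein-coding genes. Levels below are counts per 1e+06 UMIs (CPM), from the UMIs summed over the cells of a class in 1 mouse. As a description of the choice, Ms4a1 stood at 1386 and 1502 CPM in B cells of Mouse #1 and Mouse #2, and Fcmr at 794 and 555 CPM.

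The B cells were compared with 2 other classes of Cd79a+Cd79b cells that met the same limit on Adipoq, Lpl and Hp. Pre-B-type cells had at least 3 UMIs of Vpreb1 and Igll1 together (22 and 24 cells). Ms4a1-low B-lineage cells had fewer than 2 UMIs of Ms4a1 and Fcmr and fewer than 3 of Vpreb1 and Igll1 (127 and 117 cells). B cells were 33.5% (27.6 to 39.9%) and 40.8% (34.7 to 47.1%) of all B-lineage cells. The limit cut through a continuous range: 13 and 10 members had exactly 2 UMIs of Ms4a1 and Fcmr, while 21 and 17 B-lineage cells just outside had 1 and 106 and 100 had none. The median was 8 and 11 UMIs and the highest cells had 38 and 62. No member had a single UMI of Vpreb1 or Igll1.

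The label was checked with marker genes that the rule did not use. Tnfrsf13c, the receptor for the survival cytokine BAFF, stood at 644 and 506 CPM in B cells, at 46.4 and 45.6 in pre-B-type cells and at 101 and 168 in Ms4a1-low cells. Siglecg, an inhibitory lectin of B cells, stood at 656 and 488 CPM in B cells and at 545 and 465 in Ms4a1-low cells, so these classes overlapped. Dntt and Vpreb2, genes of early precursors, had no UMI in the B cells of either mouse. Vpreb2 is a Vpreb gene like Vpreb1, which the rule used, so its absence is no independent check. Rag1, another precursor gene, had a UMI in 16.0% and 9.28% of B cells. Vpreb3, also of the precursor list, had a UMI in 96.0% and 89.7% of B cells and in 99.2% and 98.3% of Ms4a1-low cells. The 22 genes of the precursor list, Vpreb1 and Igll1 among them, summed to 4030 and 2794 CPM, with 6 at 0 in both mice. In pre-B-type cells they summed to 6929 and 6837 CPM, and in Ms4a1-low cells to 8060 and 7540 CPM. Vpreb1 and Igll1 parted B cells from pre-B-type cells, so that contrast is in part built in. Cd3e, the defining T cell chain, and Itga2b, a platelet integrin, were at 0 in B cells of both mice. Of the 6 NK cell markers 5 were at 0, with 1 UMI of Klrd1. Other members of these lists were present: the 7 T cell markers summed to 2 and 30 UMIs (4.91 and 47.6 CPM, 34.1 in Mouse #2 without the barcodes rich in RNA of other cells), with 4 at 0 in both mice. The 5 megakaryocyte markers summed to 0 and 34 UMIs (53.9 CPM in Mouse #2, 72.4 without those barcodes), with 4 at 0 in both mice.

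**Figure D1:**
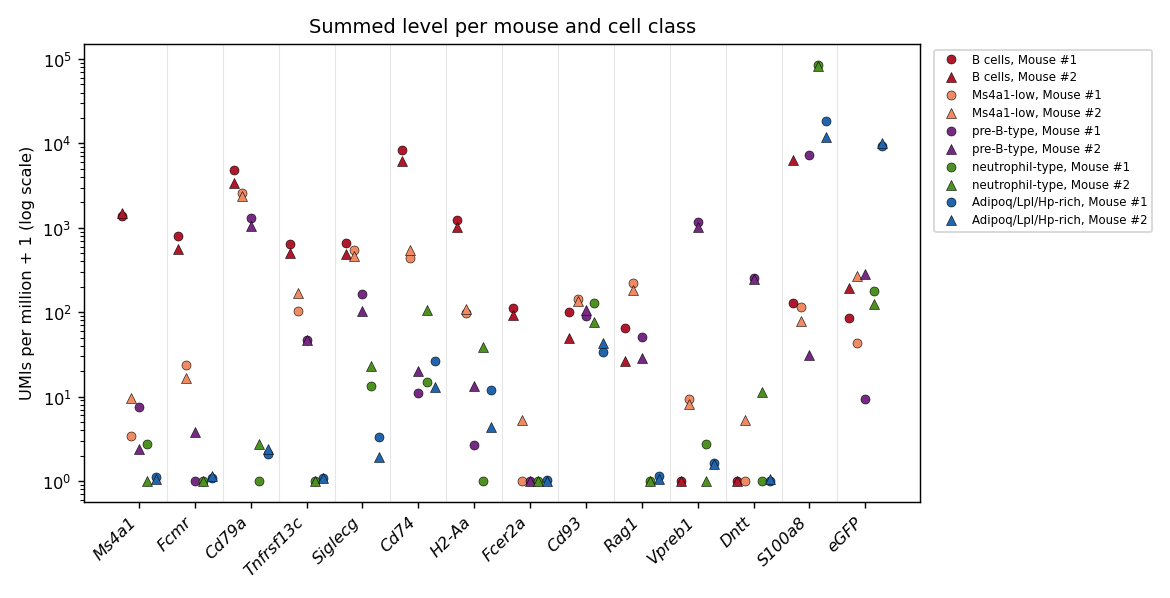
Summed level of 14 genes in 5 cell classes, in CPM plus 1 on a log axis, with circles for Mouse #1 and triangles for Mouse #2. Ms4a1, Fcmr, Cd79a and Vpreb1 are genes of the rule, so their levels were shaped by the choice of cells. Tnfrsf13c, Cd74, H2-Aa and Fcer2a were highest in B cells of both mice, and Dntt was highest in pre-B-type cells. S100a8 reached 6310 in B cells of Mouse #2 against 128 in Mouse #1.

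The classes differed in depth. The median B cell held 4656 and 4304 UMIs, close to Ms4a1-low cells (4718 and 4114), whereas the median pre-B-type cell held 22374.5 and 20668. Shares of cells with a UMI were therefore read after thinning every cell to 2000 UMIs. No barcode was shared by B cells of both libraries, and 7 barcodes were shared among all cells.

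A few B cell barcodes of Mouse #2 also carried RNA of other cells. Granulocyte and hemoglobin genes together took a median of 6.85 and 6.86 UMIs per 10000 in B cells of Mouse #1 and Mouse #2, but the highest cell reached 32.6 in Mouse #1 and 4186 in Mouse #2. In Mouse #2, 3 cells held 98.9% of the S100a8 and S100a9 UMIs and 3 cells held 98.6% of the hemoglobin UMIs. Stromal genes (Col1a1, Col1a2, Sparc, Cxcl12, eGFP) took a median of 1.95 UMIs per 10000 in Mouse #1 and 7.72 in Mouse #2. In all, 7 members of Mouse #2 and 0 of Mouse #1 held at least 50 UMIs per 10000 of either set, and counts below that moved by over 1.5 times without such barcodes are also given without them. Among pre-B-type cells, 1 cell of each mouse passed this limit. Whether these barcodes are doublets was not tested, since the doublet caller marked 6 and 3 cells of all cells and had not worked.

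**Figure D2:**
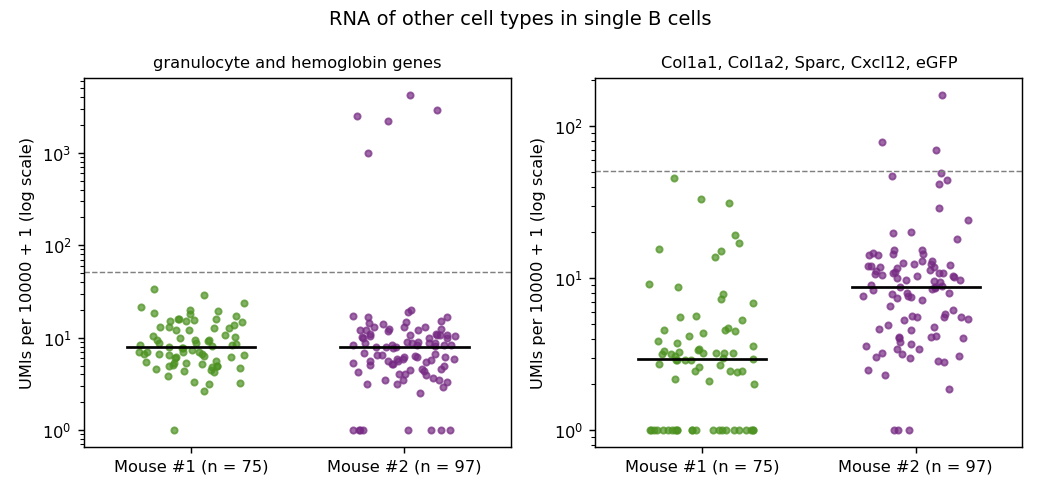
Granulocyte and hemoglobin UMIs (left) and stromal UMIs (right) per 10000 plus 1 in each B cell, on log axes, by mouse, with the median as a bar and the limit of 50 as a dashed line. The medians for blood genes were 6.85 and 6.86 while single cells of Mouse #2 reached 4186, and stromal UMIs had medians of 1.95 and 7.72.

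The first comparison asked how the transcriptome of B cells differed from that of pre-B-type cells. B cells had high MHC class II and maturation genes and low cell cycle and precursor genes. Of 6790 genes tested outside the rule, 1001 were higher in B cells (14.7% of genes tested) and 1017 were lower (15%) at an adjusted p under 0.05 in edgeR's quasi-likelihood test on the sums of each mouse and class. The median log2 fold change of all tested genes was 0.04. The counts leaned on Mouse #2: without its B cell sum they were 575 and 623, and without its pre-B-type sum 409 and 396. The second comparison, added after the data were seen, set B cells against Ms4a1-low cells of like depth. There, 240 of 7005 genes were higher (3.43%) and 260 were lower (3.71%), with a median of 0.02. With the mouse as a block these counts were 566 and 477, without the barcodes rich in RNA of other cells 545 and 535, and without the Ms4a1-low sum of Mouse #1 they were 137 and 136 and without that of Mouse #2 405 and 296. The comparisons share the B cell sums, so their calls are not independent of each other. List counts below are to be read beside the counts over all tested genes. Against pre-B-type cells, 1163 of 6790 genes were higher and 1149 lower with the block. These counts were 1208 and 1204 of 6022 without the rich barcodes, 247 and 198 of 1776 after thinning, and 412 and 498 of 13945 in DESeq2. Against Ms4a1-low cells they were 566 and 477 of 7005 and 545 and 535 of 6308 in the first 2 settings. After thinning they were 195 and 142 of 3434, and in DESeq2 151 and 182 of 14084.

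MHC class II molecules present peptides to helper T cells, and their genes were higher in B cells in both comparisons. Against pre-B-type cells, 12 of the 13 tested genes of this pathway and its costimulators were higher and 0 lower, with a median log2 fold change of 6.27 (4.81 with the 3 genes absent from pre-B-type cells at their lower bound). Against Ms4a1-low cells, 10 of 13 were higher and 0 lower, with a median of 2.73.

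Cd74, the invariant chain that guides class II molecules, stood at 8260 and 6100 CPM in B cells, at 9.95 and 19.3 in pre-B-type cells and at 441 and 543 in Ms4a1-low cells. Its log2 fold change was 8.90 ± 0.34 (SE, n = 2 per class, adjusted p = 6.72e-05, edgeR) against pre-B-type cells and 3.97 ± 0.17 (adjusted p = 0.000412, edgeR) against Ms4a1-low cells. The 3 classes formed steps with no overlap between mice.

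The antigen-binding chains followed the same order. H2-Aa stood at 1240 and 1010 CPM in B cells, 96.6 and 108 in Ms4a1-low cells and 1.66 and 12.4 in pre-B-type cells. H2-Ab1 stood at 1060 and 782 CPM in B cells against 129 and 169 in Ms4a1-low cells. H2-Eb1 was less even between mice, at 1130 and 414 CPM in B cells, yet both values lay above the 76.3 and 41.2 CPM of Ms4a1-low cells.

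Peptide loading is edited by H2-DM and restrained by H2-O. H2-DMb2 stood at 229 and 152 CPM in B cells against 0 and 9.95 in Ms4a1-low cells, and H2-Oa at 68.8 and 61.8 against 5.96 and 7.11. H2-DMb1, a near copy of H2-DMb2 whose reads can be confused with it, was not called in either comparison (17.2 and 27.0 CPM in B cells). Ciita, the master coactivator of class II genes, had 7 and 5 UMIs in B cells, too few to be tested.

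Costimulators rose with them. Cd83, an activation marker that stabilizes surface class II, had 310 and 151 CPM in B cells and none in pre-B-type cells, at least 94.2-fold higher against a floor of 3 UMIs over that class (adjusted p = 0.000643, edgeR). Cd40, the receptor for T cell help, was at least 39.2-fold higher by the same floor, with 101 and 80.9 CPM. Against Ms4a1-low cells, Cd40 was higher by a log2 fold change of 2.62 ± 0.28 (adjusted p = 0.00511, edgeR), and Cd83 by 3.45 ± 0.70 (adjusted p = 0.0371, edgeR), a call lost without the B cell sum of Mouse #1. Cd86 reached only 17.2 and 25.4 CPM. MHC class I genes moved less: 4 of 9 were higher against pre-B-type cells, Tapbp (1.89 ± 0.25), H2-T23 (1.74 ± 0.35), H2-D1 (1.27 ± 0.15) and H2-K1 (1.17 ± 0.20), and 0 of 9 against Ms4a1-low cells in edgeR, where 2 had an unadjusted p under 0.05, 1 was called with the mouse as a block and 1 without the rich barcodes, DESeq2 called 0 of 10 and the list's median was 0.13.

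Since the class II genes moved together, their promoters are shown. RefSeq promoters (GRCm38.p6, 250 bases before to 50 after the start) were found for 10 of the 16 genes of the list, 11 promoters in all. They were searched on both strands for the core of the Y box, ATTGG, an inverted CCAAT motif bound by NF-Y, and for the longer TGATTGG that contains it and was picked after the promoters were read. The core was in 8 of the 11 promoters and in 37.4% of all 32851 promoters. The longer form was in 6 of the 11, those of H2-Aa, H2-Eb1, H2-DMb1, H2-DMb2, H2-Oa and H2-Ob, each time on the strand of the gene, and in 7.82% of all promoters. The 4 genes called in both comparisons are printed with TGATTGG in capitals. They lie at chr17:34287774-34288073 (minus strand), chr17:34305617-34305916, chr17:34144999-34145298 and chr17:34092129-34092428 (plus strand) in turn, and the match began 50, 61, 92 and 45 bases before the start. A match describes the letters and does not show binding.
H2-Aa: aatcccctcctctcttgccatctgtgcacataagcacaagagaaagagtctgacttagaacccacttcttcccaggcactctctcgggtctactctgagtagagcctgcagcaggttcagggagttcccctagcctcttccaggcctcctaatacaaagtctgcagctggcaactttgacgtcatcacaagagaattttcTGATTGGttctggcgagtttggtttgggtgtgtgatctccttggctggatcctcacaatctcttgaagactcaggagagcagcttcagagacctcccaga
H2-Eb1: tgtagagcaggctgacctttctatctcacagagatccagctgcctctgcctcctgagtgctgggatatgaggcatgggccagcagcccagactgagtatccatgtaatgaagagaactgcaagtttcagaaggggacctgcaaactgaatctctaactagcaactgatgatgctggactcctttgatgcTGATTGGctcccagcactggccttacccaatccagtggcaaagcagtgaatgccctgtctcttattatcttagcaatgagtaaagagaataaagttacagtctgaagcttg
H2-DMb2: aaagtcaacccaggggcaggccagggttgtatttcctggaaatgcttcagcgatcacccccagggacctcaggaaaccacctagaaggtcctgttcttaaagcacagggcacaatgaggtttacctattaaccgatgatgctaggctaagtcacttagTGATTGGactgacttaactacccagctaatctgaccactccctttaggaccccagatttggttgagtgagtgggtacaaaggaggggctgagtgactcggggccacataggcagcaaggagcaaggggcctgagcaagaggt
H2-Oa: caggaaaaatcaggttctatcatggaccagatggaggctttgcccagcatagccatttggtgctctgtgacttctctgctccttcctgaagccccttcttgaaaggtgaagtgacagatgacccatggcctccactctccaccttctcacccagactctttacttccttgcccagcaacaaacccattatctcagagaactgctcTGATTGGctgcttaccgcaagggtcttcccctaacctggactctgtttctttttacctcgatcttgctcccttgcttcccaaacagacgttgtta

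Genes that mark the passage from immature to mature B cells rose as a group. Against pre-B-type cells 13 of 16 tested genes were higher and 0 lower (median log2 fold change 2.68), and against Ms4a1-low cells 8 of 16 were higher and 0 lower (median 1.5). Fcer2a, the low-affinity IgE receptor CD23 of follicular B cells, stood at 111 and 92.0 CPM in B cells and had no UMI in pre-B-type cells, at least 43.9-fold higher. In Ms4a1-low cells it had 3 UMIs in all, all in Mouse #2, for a ratio of 51 (exact counting interval 17.0 to 251). After thinning, 16.0% and 13.4% of B cells held a Fcer2a UMI (25.3% and 17.5% before), against 0 of 1862 and 0 of 3235 cells (median 12966.5 and 11799 UMIs) rich in Adipoq, Lpl or Hp, which allows up to 0.161% and 0.0927%.

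Cd55, a complement regulator, stood at 216 and 121 CPM in B cells against 4.97 and 4.15 in pre-B-type cells (5.14 ± 0.44, adjusted p = 0.000418, edgeR). Il4ra, the receptor chain for interleukin 4, stood at 76.2 and 38.1 CPM against 3.32 and 2.76. Ms4a4c, a membrane protein of the CD20 family, had 61.4 and 44.4 CPM and no UMI in pre-B-type cells, at least 22.6-fold higher. Against Ms4a1-low cells, Cd55 did not pass (40.6 and 81.1 CPM there, adjusted p = 0.0707, edgeR). Il4ra rose by 2.34 ± 0.46 (adjusted p = 0.0317, edgeR), a call lost without the B cell sum of Mouse #1, and Ms4a4c rose by 2.52 ± 0.39 (adjusted p = 0.0145, edgeR). Tnfrsf13c was higher by 3.65 ± 0.22 (adjusted p = 0.000136, edgeR) than in pre-B-type cells and by 2.20 ± 0.26 (adjusted p = 0.00688, edgeR) than in Ms4a1-low cells.

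Precursor genes were lower. Outside Vpreb1 and Igll1, 9 of 18 tested genes were lower than in pre-B-type cells and 0 higher, and 9 of 14 were lower than in Ms4a1-low cells and 0 higher, or 14 of 14 with the mouse as a block. The medians were -1.23 and -1.46. Dntt, the polymerase that adds bases at heavy chain joints, stood at 255 and 243 CPM in pre-B-type cells and was at least 86.0-fold lower in B cells. Lef1, a transcription factor of precursors, stood at 27.0 and 9.51 CPM in B cells against 267 and 206 (log2 fold change -3.77 ± 0.39, adjusted p = 0.000825, edgeR). Arpp21 and Vpreb2, absent from B cells, were at least 18.5-fold and 26.9-fold lower. The value of Vpreb2 is not independent of the rule, which used Vpreb1 to part these classes.

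Il7r and Rag1, genes of B cell precursors, were lower in B cells than in Ms4a1-low cells. Il7r, the receptor for the growth factor interleukin 7, stood at 416 and 378 CPM in Ms4a1-low cells, 215 and 229 in pre-B-type cells and 78.6 and 25.4 in B cells. Rag1, which cuts immunoglobulin genes for rearrangement, stood at 218 and 181 CPM in Ms4a1-low cells against 63.9 and 25.4 in B cells (-2.12 ± 0.37, adjusted p = 0.0215, edgeR) and did not pass the test between B cells and pre-B-type cells (49.7 and 27.6 CPM). Both calls of B cells against Ms4a1-low cells were lost when cells needed at least 2000 genes and no more than 10% mitochondrial UMIs, limits that together left 53 and 29 Ms4a1-low cells and 21 and 30 B cells. After thinning, 10.7% and 4.12% of B cells held a Rag1 UMI (16.0% and 9.28% before), against 37.0% and 38.3% of Ms4a1-low cells (59.1% and 52.1% before). Cells rich in Adipoq, Lpl or Hp, which should lack Rag1, held it in 1 of 1862 cells (0.0537%) and 0 of 3235 cells, which allows up to 0.0927%. Their median depths were 12966.5 and 11799 UMIs. Myb was lower than in Ms4a1-low cells by 1.70 ± 0.17 on the log2 scale (adjusted p = 0.00462, edgeR).

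Genes of cell division were lower in B cells. Of 30 tested cell cycle genes 30 were lower than in pre-B-type cells (median log2 fold change -3.00), with 23 of 25 after thinning, and 18 of 30 were lower than in Ms4a1-low cells and 0 higher (median -2.32). Plk1, a mitotic kinase, had 1 and 2 UMIs in B cells (2.46 and 3.17 CPM) against 74.6 and 98.1 CPM in pre-B-type cells. Cdk1, the kinase that drives mitosis, stood at 17.2 and 6.34 CPM against 237 and 249 in pre-B-type cells (-4.44 ± 0.36, adjusted p = 0.000372, edgeR) and 185 and 131 in Ms4a1-low cells (-3.73 ± 0.43, adjusted p = 0.00579, edgeR). Nusap1, a spindle protein, stood at 51.6 and 1.59 CPM in B cells against 451 and 362 in pre-B-type cells and 343 and 259 in Ms4a1-low cells. Ccnb1, a mitotic cyclin, stood at 19.7 and 4.76 CPM against 169 and 191 in pre-B-type cells, and Ccna2 at 19.7 and 12.7 and Cenpf at 44.2 and 14.3 CPM against 223 and 149 and 397 and 267 in Ms4a1-low cells. UMIs of the whole list were found in 74 of 75 and 96 of 97 B cells, and the highest cell held 51.6% and 32.4% of them. UMIs of 8 mitosis genes, Cdk1, Ccnb1 and Ccna2 among them, were found in 7 and 12 B cells, and the highest cell held 91.2% and 61.2% of them. Without barcodes rich in RNA of other cells, 30 and 25 of 30 genes were lower.

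Histone genes, whose RNA is made in S phase, were among the genes that fell outside the lists. Hist1h2ap stood at 108 and 93.5 CPM in B cells, 5010 and 3210 in pre-B-type cells and 3970 and 3660 in Ms4a1-low cells (-5.13 ± 0.14 against the last, adjusted p = 5.48e-05, edgeR). Hist1h1b stood at 24.6 and 33.3 CPM in B cells against 1500 and 911 and 1080 and 808. Hist1h2af had no UMI in B cells, at least 27.4-fold and 38.4-fold lower. Hist1h3c stood at 2.46 and 3.17 CPM in B cells against 239 and 140 and 191 and 175. The same rule named Hist1h3b, Hist1h2ab, Hist1h2bj and Hist1h2ae against Ms4a1-low cells. Against pre-B-type cells it named Shcbp1, Ramp1 (2.46 and 3.17 CPM in B cells, 113 and 158 in pre-B-type cells), Myl10 and 6030408B16Rik, the last pair with no UMI in B cells. Copies of the histone cluster are alike, so counts of single genes are uncertain.

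The B cell receptor carries its signal through kinases and adaptors, and inhibitory coreceptors damp it. Of 8 tested coreceptors, 5 were higher and 1 lower against pre-B-type cells (median 1.94), and 3 were higher against Ms4a1-low cells (median 0.59), a count that was 1 without the Ms4a1-low sum of Mouse #1. Without the rich barcodes 4 were higher and 1 lower there. Cd22, an inhibitory lectin, stood at 147 and 87.2 CPM in B cells against 21.5 and 18.0 in pre-B-type cells and 14.3 and 17.1 in Ms4a1-low cells. The difference was 2.55 ± 0.33 (adjusted p = 0.00192, edgeR) and 2.98 ± 0.34 (adjusted p = 0.00599, edgeR). Pirb, an inhibitory receptor that binds class I molecules, stood at 27.0 and 41.2 CPM against 1.66 and 0 and against 5.96 and 7.11. Cd72, another inhibitory coreceptor, was higher than in Ms4a1-low cells by 0.77 ± 0.15 (adjusted p = 0.0298, edgeR). Fcgr2b, the inhibitory IgG receptor, was higher than in pre-B-type cells by 2.22 ± 0.34, and Siglecg by 2.11 ± 0.26. Cd24a, the heat stable antigen of immature cells, was lower (1060 and 897 against 1790 and 1670 CPM), a call lost without either Mouse #2 sum.

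Of the signaling genes, 15 of 23 were higher than in pre-B-type cells and 0 lower (median 1.06), but 5 without the pre-B-type sum of Mouse #2, 9 without that of Mouse #1, 6 in DESeq2 and 5 of 13 after thinning. Against Ms4a1-low cells 5 of 22 were higher (median 0.64), 3 without the B cell sum of either mouse, and 9 higher and 2 lower with the mouse as a block. Without the rich barcodes 11 were higher and 2 lower there, and 16 of 22 higher and 1 lower against pre-B-type cells. Bank1, an adaptor of the receptor, was the clearest: 241 and 173 CPM in B cells, none in pre-B-type cells (at least 88.2-fold) and 3.58 and 8.53 CPM in Ms4a1-low cells (5.19 ± 0.38, adjusted p = 0.00182, edgeR). Ptpn6, the phosphatase SHP-1, stood at 499 and 422 CPM against 90.6 and 82.5 in Ms4a1-low cells (2.51 ± 0.17, adjusted p = 0.00169, edgeR). Ptprc, the phosphatase CD45, stood at 511 and 438 CPM against 97.8 and 95.4 in pre-B-type cells (2.31 ± 0.19, adjusted p = 0.00042, edgeR). Rasgrp3, a Ras activator, was called in both comparisons but rested on 10 and 16 UMIs and lost the second call without any 1 sum.

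**Figure D3:**
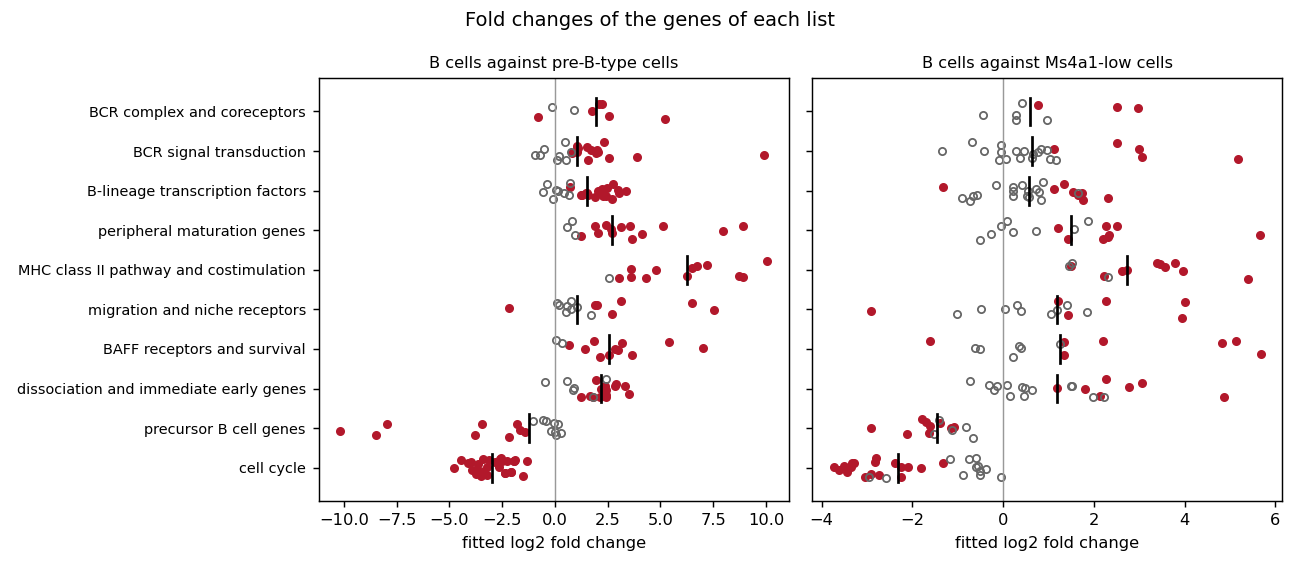
Fitted log2 fold change of each tested gene in 10 gene lists, B cells against pre-B-type cells (left) and against Ms4a1-low cells (right, another axis range), with filled points for adjusted p under 0.05 in edgeR and bars at the list medians. Values of genes absent from a class depend on the fit. MHC class II genes lay right of 0 with medians of 6.27 and 2.73, and cell cycle genes left of 0 with medians of -3.00 and -2.32.

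Transcription factors of the lineage were mostly higher than in pre-B-type cells. Against pre-B-type cells 17 of 25 were higher and 0 lower (median 1.52). Against Ms4a1-low cells 7 were higher and 1 lower (median 0.58), with 4 higher and 0 lower without the Ms4a1-low sum of Mouse #1, 5 higher and 4 lower without the B cell sum of Mouse #1, and 10 higher and 5 lower with the mouse as a block. Without the rich barcodes 13 were higher and 5 lower. Among them were members of the NF-kB family: Relb stood at 118 and 72.9 CPM in B cells against 13.3 and 5.53 in pre-B-type cells (3.35 ± 0.44, adjusted p = 0.00192, edgeR), and Rel at 442 and 279 against 61.3 and 51.1 there and 131 and 112 in Ms4a1-low cells. Pou2f2, the octamer factor OCT2, stood at 420 and 371 CPM against 59.7 and 38.7 and against 130 and 119. Klf3 stood at 78.6 and 65.0 CPM against 14.9 and 6.91 in pre-B-type cells, and Mef2c at 931 and 534 CPM against 219 and 246 in Ms4a1-low cells. Both are transcription factors active in mature B cells. Zfp318, which is needed for IgD to be made from the shared heavy chain transcript, was higher by 2.40 ± 0.36 (adjusted p = 0.00321, edgeR) and by 2.31 ± 0.40 (adjusted p = 0.021, edgeR). Bach2 was lower than in Ms4a1-low cells (278 and 140 against 582 and 516 CPM, adjusted p = 0.0461, edgeR), a call lost without the Ms4a1-low sum of Mouse #1. Pax5, the factor that holds B cell identity, did not pass in either comparison (430 and 276 CPM in B cells).

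Survival genes rose around the BAFF pathway, which keeps mature B cells alive. Of 13 tested genes, 11 were higher than in pre-B-type cells and 0 lower (median 2.58), and 7 of 15 without the pre-B-type sum of Mouse #2. Against Ms4a1-low cells 6 were higher and 1 lower (median 1.25), and 3 were higher without the B cell sum of Mouse #1. Bcl2, which blocks cell death, stood at 78.6 and 38.1 CPM in B cells, 9.95 and 2.76 in pre-B-type cells and 0 and 4.27 in Ms4a1-low cells. Its relative Bcl2l1 (BCL-XL) went the other way, at 31.9 and 28.5 CPM against 101 and 96.7 in Ms4a1-low cells (-1.60 ± 0.25, adjusted p = 0.015, edgeR). Bcl2a1b was higher too, at 66.3 and 74.5 CPM against 2.39 and 0, although reads of its close copies such as Bcl2a1d cannot be told apart with certainty. Mcl1 was higher than in pre-B-type cells by 2.11 ± 0.23 (adjusted p = 0.0011, edgeR) and than in Ms4a1-low cells by 1.35 ± 0.16 (adjusted p = 0.00719, edgeR). Nfkb2, the arm of NF-kB downstream of BAFF, stood at 81.1 and 65.0 CPM against 16.6 and 2.76 in pre-B-type cells.

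Some receptors that steer B cells to the spleen, blood and lymph nodes were higher, while most genes of their list did not pass. Of 15 tested migration genes, 6 were higher and 1 lower (Il7r) against pre-B-type cells (median 1.05), and 5 higher and 1 lower (Il7r) against Ms4a1-low cells (median 1.18), or 8 higher with the mouse as a block. Gpr183, an oxysterol receptor that places B cells in lymphoid tissue, stood at 86.0 and 84.0 CPM in B cells, 0 and 1.38 in pre-B-type cells and 8.35 and 2.84 in Ms4a1-low cells (3.94 ± 0.42 against the last, adjusted p = 0.00499, edgeR). Cnr2, the cannabinoid receptor CB2, had 41.8 and 36.5 CPM and none in pre-B-type cells, at least 17.0-fold higher. S1pr1, the receptor by which cells exit to the blood, stood at 174 and 174 CPM in B cells against 13.3 and 26.3 in pre-B-type cells (3.12 ± 0.33, adjusted p = 0.000927, edgeR). Ccr7, which guides cells to T cell zones, stood at 251 and 203 CPM against 28.2 and 40.1 in pre-B-type cells (2.72 ± 0.26, adjusted p = 0.000668, edgeR). Cxcr5, the follicle homing receptor, was higher than in Ms4a1-low cells by 4.01 ± 0.46 (adjusted p = 0.00564, edgeR). Cxcr4, the receptor for CXCL12, did not pass in either comparison, at 334 and 141 CPM in B cells, 182 and 96.7 in pre-B-type cells and 401 and 299 in Ms4a1-low cells.

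Most innate receptor and immediate early genes were higher than in pre-B-type cells, and most did not pass against Ms4a1-low cells. Of 6 tested genes of innate receptors and their partners, 5 were higher than in pre-B-type cells and 2 than in Ms4a1-low cells. The latter were Cd180 (2.37 ± 0.24) and its partner Ly86 (2.11 ± 0.24). Unc93b1, which carries receptors to endosomes, stood at 634 and 457 CPM against 133 and 94.0 in pre-B-type cells (2.28 ± 0.24, adjusted p = 0.000994, edgeR), and Ly96 at 22.1 and 31.7 CPM against 4.97 and 6.91. Of 21 genes that respond to stimulation or to dissociation of tissue, 15 were higher than in pre-B-type cells (median 2.19) and 7 of 21 than in Ms4a1-low cells (median 1.19), with 0 lower, or 11 higher and 1 lower with the mouse as a block and 9 of 19 higher and 1 lower without the rich barcodes. Myc, which B cells raise on stimulation, stood at 152 and 108 CPM in B cells, 4.97 and 41.5 in pre-B-type cells and 4.77 and 4.27 in Ms4a1-low cells (4.88 ± 0.35 against the last, adjusted p = 0.00174, edgeR). Egr1 stood at 197 and 128 CPM against 10.7 and 31.3 in Ms4a1-low cells. Nr4a1, which B cells raise on receptor signaling, stood at 236 and 113 CPM against 19.9 and 27.6 in pre-B-type cells and 25 and 28.4 in Ms4a1-low cells. Ier3 and Atf3 reached 51.6 and 23.8 and 73.7 and 33.3 CPM, and Ier2 258 and 170 CPM. Junb stood at 602 and 344 CPM against 48.1 and 47.0 in pre-B-type cells. Since cells were freed with enzymes, the part of handling in these levels was not tested.

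Outside the lists, Il4i1, an amino acid oxidase induced by interleukin 4, stood at 322 and 222 CPM in B cells, 1.66 and 0 in pre-B-type cells (ratio 347, exact counting interval 61.7 to 13700) and 0 and 1.42 in Ms4a1-low cells (ratio 403, 71.7 to 16000). Klhl14 (113 and 82.5 CPM) and Cd14, a coreceptor for lipopolysaccharide (88.5 and 57.1 CPM), had no UMI in pre-B-type cells. Cyp4f18 (61.4 and 58.7 CPM), Gm43603, 4930426D05Rik and Gm5483 had no UMI in pre-B-type cells either. Lat2, an adaptor of immune receptors, stood at 73.7 and 46.0 CPM against 3.58 and 2.84 in Ms4a1-low cells, and Fgd2 at 46.7 and 55.5 CPM against 0 and 2.84, beside AC125149.3. Wfdc21 and Pglyrp1, genes that granulocytes also express, were higher than in Ms4a1-low cells at 108 and 266 and at 27.0 and 151 CPM, with the higher value in the mouse whose barcodes held granulocyte RNA.

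Markers of other cell types were read in the same fits, and the part of their RNA in other results was not tested. The rich barcodes were chosen by granulocyte, hemoglobin and stromal genes, so lower sums without them are in part built in. The summed level of 9 granulocyte markers was 405 and 14990 CPM in B cells (405 and 224 without the rich barcodes), 18470 and 88.5 in pre-B-type cells and 361 and 212 in Ms4a1-low cells. None of 5 tested granulocyte genes passed against pre-B-type cells in edgeR, 0 had an unadjusted p under 0.05 and DESeq2 called 1 of 9. Without the pre-B-type sum of Mouse #1, 6 of 6 were higher, and against Ms4a1-low cells 0 of 4 passed (4 at an unadjusted p under 0.05) but 6 of 6 did without the B cell sum of Mouse #1. With the mouse as a block 2 of 4 were higher there, after thinning 2 of 2, and without the rich barcodes 0 of 4.

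The summed level of 9 erythroid markers was 450 and 24740 CPM in B cells, or 450 and 418 without the rich barcodes, and 252 and 257 in pre-B-type cells. Of 5 tested erythroid genes 4 were higher than in pre-B-type cells (Hba-a1, Hba-a2, Hbb-bt and Hbb-bs, the last at 243 and 11700 CPM against 124 and 92.6), 2 with the mouse as a block, 3 (and 1 lower) without the rich barcodes, 1 without the B cell sum of Mouse #2, and 9 of 9 without that of Mouse #1, 8 of 9 without the pre-B-type sum of Mouse #1 and 0 of 9 without that of Mouse #2. Against Ms4a1-low cells 0 of 4 passed in edgeR (4 at an unadjusted p under 0.05), 2 of 9 in DESeq2, 2 of 4 with the mouse as a block, and 9 of 9 without the B cell sum of Mouse #1 or the Ms4a1-low sum of Mouse #2.

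The summed level of 14 stromal markers was 698 and 3185 CPM in B cells (698 and 1084 without the rich barcodes), 159 and 1654 in pre-B-type cells and 342 and 2900 in Ms4a1-low cells, higher in Mouse #2 in each class. Of 10 tested stromal genes 2 were higher than in pre-B-type cells (Cp and tdTomato), near the 14.7% of all tested genes that were higher. The count was 7 with the mouse as a block, 7 of 7 without the rich barcodes and 0 of 4 after thinning. Over all genes it was 1163 of 6790, 1208 of 6022 and 247 of 1776 in turn. Leaving out 1 sum gave 0 (B cells of Mouse #2) to 6 (B cells of Mouse #1), 1 without the pre-B-type sum of Mouse #1 and 4 without that of Mouse #2. Against Ms4a1-low cells 0 of 11 passed in edgeR (0 at an unadjusted p under 0.05) and in DESeq2, 3 with the block and 8 without the Ms4a1-low sum of Mouse #2.

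Of the remaining marker lists few genes could be tested. Against pre-B-type cells, the kinase gene Lck was lower (4.91 and 9.51 against 29.8 and 27.6 CPM), a call lost without any 1 sum, Mzb1, a chaperone for immunoglobulin, was lower (383 and 323 against 653 and 688 CPM), lost without the pre-B-type sum of Mouse #2, and the endothelial marker Pecam1 was higher (76.2 and 72.9 against 36.5 and 23.5 CPM), lost without either Mouse #2 sum. Against Ms4a1-low cells, Slpi was higher (27.0 and 41.2 against 4.77 and 9.95 CPM), a call kept only without the Ms4a1-low sum of Mouse #2, and F13a1, a monocyte gene, had no UMI in B cells (26.2 and 29.9 CPM in Ms4a1-low cells), a call lost without the Ms4a1-low sum of either mouse and without the rich barcodes, where 0 of 2 monocyte markers passed. Of the Ms4a family beside Ms4a1, 2 of 2 tested genes (Ms4a4c and Ms4a6b) were higher than in pre-B-type cells, 1 of 4 without the pre-B-type sum of Mouse #2, and 1 of 3 was higher than in Ms4a1-low cells, 2 of 4 without the B cell sum of Mouse #1.

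Since a label field names GFP+ cells, the eGFP transcript was read in B cells. It stood at 83.5 CPM in Mouse #1 (34 UMIs, exact Poisson interval 57.9 to 117) and 190 CPM in Mouse #2 (120 UMIs, 158 to 228), a mean of 136.9 CPM. Cells rich in Adipoq, Lpl or Hp, which also held granulocyte RNA, stood at 9428 and 9996 CPM, and free RNA in barcodes of 1 to 100 UMIs at 3311 and 3461 CPM. Neutrophil-type cells, which should lack eGFP, stood at 177 and 125 CPM, so B cells lay below them in Mouse #1 and above them in Mouse #2. Pre-B-type cells stood at 8.29 and 285 CPM and Ms4a1-low cells at 41.7 and 266 CPM. Both classes thus lay below B cells in Mouse #1 and above them in Mouse #2. Without the 7 rich barcodes B cells of Mouse #2 stood at 95.9 CPM. However, eGFP was among the genes that chose those barcodes, so part of this drop was built in. The pre-B-type and Ms4a1-low values keep any such barcodes of their own. After thinning, 13.3% and 29.9% of B cells held an eGFP UMI (21.3% and 39.2% before), against 20.7% and 7.14% of neutrophil-type cells with median depths of 13753 and 15149.5 UMIs, and 88.0% and 92.2% of cells rich in Adipoq, Lpl or Hp. Of pre-B-type cells 4.55% and 8.33% held an eGFP UMI after thinning, and of Ms4a1-low cells 9.45% and 16.5%. The tdTomato transcript stood at 44.2 and 84.0 CPM in B cells (34.1 in Mouse #2 without the rich barcodes) and 574 and 902 CPM in cells rich in Adipoq, Lpl or Hp.

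B cells were also split by the RNA of Cd93 and Fcer2a. Cd93 encodes CD93, a surface marker of immature and transitional B cells, and Fcer2a encodes CD23. In Mouse #1, 18 B cells held Fcer2a and no Cd93 UMI (24.0%, 15.8 to 34.8%), 20 held Cd93 and no Fcer2a (26.7%, 18.0 to 37.6%), 1 held both and 36 held neither. In Mouse #2 the numbers were 16 (16.5%, 10.4 to 25.1%), 18 (18.6%, 12.1 to 27.4%), 1 and 62. The depths were alike, with medians of 5253.5 and 4395.5 UMIs in Fcer2a-positive and 4376 and 5224.5 in Cd93-positive cells. At this depth a cell with neither cannot be placed. Cd93 was not limited to the B lineage. After thinning, 21.3% and 13.4% of B cells held a Cd93 UMI, against 20.7% and 7.14% of neutrophil-type cells. Cells rich in Adipoq, Lpl or Hp held it in 5.32% and 8.38% (25.4% and 30.3% before thinning). Whether single Cd93 UMIs in B cells came from RNA of other cells was not tested.

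A test of these 2 subsets, added after the data were seen because the feature table had no immunoglobulin constant gene to tell IgD-rich cells, called few genes. Besides Fcer2a and Cd93, which made the split, 2 of 1746 genes were higher (0.115%) and 3 lower (0.172%) in Fcer2a-positive cells by edgeR. Vpreb3, a chaperone linked to the receptor of precursors, stood at 721 and 848 CPM in Fcer2a-positive cells against 3980 and 2130 in Cd93-positive cells (-1.88 ± 0.29, adjusted p = 0.0433, edgeR). Tyrobp, an adaptor of activating receptors, stood at 46.8 and 72.7 against 533 and 912 CPM (-3.56 ± 0.46, adjusted p = 0.024, edgeR), and Atp1b1, a subunit of the sodium pump, at 18.7 and 72.7 against 1180 and 404 CPM. Shisa5 (721 and 364 against 67.8 and 80.7 CPM) and the heat shock gene Hspa1a (150 and 279 against 0 and 8.07 CPM, ratio 46.8, 7.91 to 1890) were higher. Beside these calls, 258 genes had an unadjusted p under 0.05. Granulocyte RNA moved with 1 of the sums: S100a8 stood at 194 and 14200 CPM in Cd93-positive cells and 122 and 158 in Fcer2a-positive cells, and without the 1 rich barcode there 2 genes were higher and 4 lower.

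These 5 calls depended on the sums. Without the Fcer2a-positive sum of Mouse #2, edgeR called 0 genes either way (161 at an unadjusted p under 0.05), without that of Mouse #1 12 and 54, without the Cd93-positive sum of Mouse #1 43 and 78, and without that of Mouse #2 95 and 81. With the mouse as a block 19 genes were higher and 18 lower. None of the 11 tested class II genes passed in edgeR (median 1.88, 7 at an unadjusted p under 0.05) or of 16 in DESeq2, 2 passed with the block and 7 of 8 after thinning. Over all genes, 19 of 1746 were higher with the block and 24 of 523 after thinning. Cd74 stood at 15100 and 12400 CPM in Fcer2a-positive and 1250 and 7110 in Cd93-positive cells (adjusted p = 0.248, edgeR), so the Cd93-positive cells of both mice differed more from each other than the Fcer2a-positive cells did. H2-Aa showed the same spread, at 3040 and 2580 against 223 and 1810 CPM. Of the precursor genes, Myb (28.1 and 48.5 against 271 and 129 CPM), Cecr2 and Myl4 had lower values in Fcer2a-positive cells of both mice and did not pass (adjusted p = 0.12, 0.0911 and 0.12, edgeR).

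**Figure D4:**
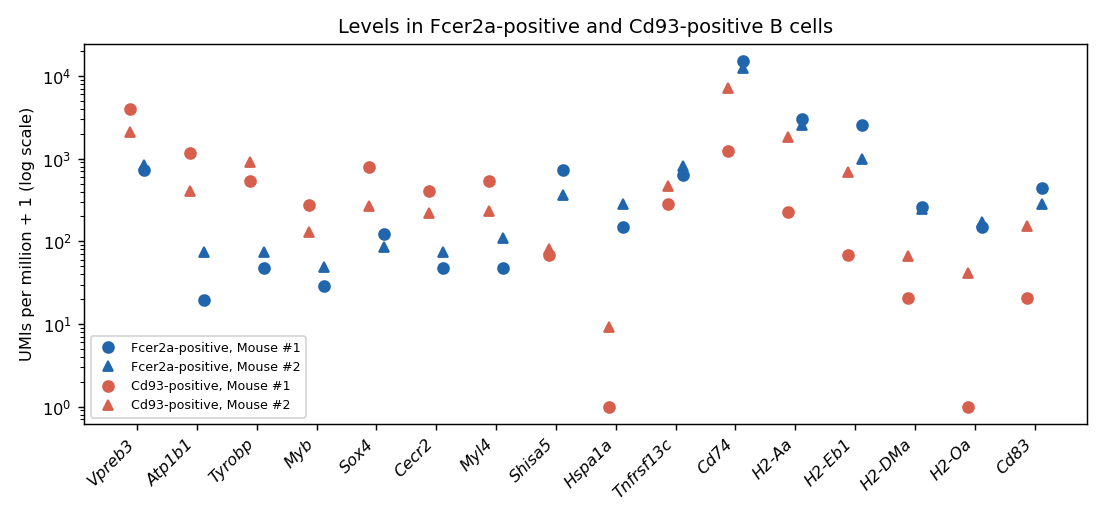
Levels of 16 genes in CPM plus 1 on a log axis in Fcer2a-positive (blue) and Cd93-positive (red) B cells, circles for Mouse #1 and triangles for Mouse #2. Vpreb3, Atp1b1 and Tyrobp lay higher in Cd93-positive cells of both mice, and Cd74 ran from 1250 to 15100 with the lowest value in Cd93-positive cells of Mouse #1.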

How the data were processed

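Single-cell RNA-seq (10x Genomics 3' v3) was done on 1 library from each of 2 mice. The authors deposited raw count matrices of UMIs per gene and barcode, made with Cell Ranger 3.0.0 per the file headers and mapped to mm10 per the labels, for 6794880 barcodes and 28006 features a library. The submitters' processing notes also name Seurat. The annotation release is not given in the sources used here, and immunoglobulin constant genes were not analysed here.

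The members and lists were chosen with earlier results of these data known. Cells were selected as described in the report, and the counts were summed per mouse and class. Sums were fitted over all genes kept by filterByExpr with edgeR 4.0.16 in R 4.3.3 (quasi-likelihood test, TMM scaling), with Benjamini-Hochberg adjustment, a threshold of 0.05 and no block. The 9 rule genes entered the fits but no count of calls. Depth was 54940400 and 88790688 UMIs a library. Shares have 95% Wilson intervals and levels have exact Poisson intervals (counting error only). The classes of a mouse come from the same animal, so the mouse pairs them. The deviations of paired sums correlated with r = 0.145, 0.395 and 0.0124 in the 3 comparisons, across genes, which are not independent replicates. Named genes were members of the lists, first the called genes with the largest changes, and outside the lists the 8 highest and 8 lowest changes among genes called, moved alike in both mice, with a mean of 50 CPM or more in the higher class. Scrublet marked 6 and 3 cells (0.218% and 0.0655%) and had not worked, so its 60 and 168 highest scores were left out as an alternative. Other alternatives were DESeq2 1.42.0, other scaling, filters and limits, thinning to 2000 UMIs, the mouse as a replicate block and leaving out each sum. Scripts were tested on simulated data. Of 100 genes changed 2-fold, 12, 5 and 6 were recovered in the 3 comparisons in turn. Of 100 genes changed 4-fold, 61, 62 and 39 were recovered. A gene that did not pass can thus still differ between classes. Some genes that this rule names are not reported here.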

Additional observations from a re-analysis of the deposited data

How the results depend on the processing

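With 2 mice, p-values rest on the spread between 2 sums per class. The share of B cells (2.422%) was 0.8863% under stricter cell limits (2000 genes, no more than 10% mitochondrial UMIs), 1.913% with at least 4 UMIs of Ms4a1 and Fcmr, and 2.117 to 2.727% in single mice. The mean eGFP level (136.9 CPM) was 83.54 to 190.3 in single mice, and the median over cells was 0.0 UMIs per 10000. Against pre-B-type cells, 1001 higher and 1017 lower genes became 412 and 498 in DESeq2, 247 and 198 after thinning (chosen after seeing the data, with 1776 genes tested), 463 and 348 with the stricter cell limits, and 409 to 892 and 396 to 862 without single sums. The replicate block gave 1163 and 1149. Against Ms4a1-low cells, 240 and 260 became 566 and 477 with the replicate block, 151 and 182 in DESeq2, 624 and 592 with no filter, 545 and 535 without rich barcodes, 195 and 142 after thinning, 109 and 128 with stricter cell limits, and 137 to 405 and 136 to 320 without single sums. For the Fcer2a split, 2 and 3 became 19 and 18 with the replicate block, 1 and 5 in DESeq2, 0 and 1 with upper-quartile scaling, 58 and 126 with no filter, 1 and 2 without the highest Scrublet scores, 24 and 21 after thinning, 1 and 10 with at least 4 UMIs, and 0 to 95 and 0 to 81 without single sums. Where no construction is named, the cause was not tested. No named call reversed under the alternatives run. The planned split by IgD, light chain use and the fit without immunoglobulin genes were not run, since their genes were not analysed here, and the stricter cell limits left too few cells for the Fcer2a split.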

Other observations

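Cxcl12 itself stood at 98.3 CPM (40 UMIs, exact Poisson interval 70.2 to 134) in B cells of Mouse #1 and 297 CPM (187 UMIs, 256 to 342) in those of Mouse #2, or 183 CPM without the barcodes rich in RNA of other cells. Cxcl12 was among the genes that chose those barcodes, so part of this drop was built in. Free RNA stood at 3785 and 3614 CPM. Lepr, the leptin receptor of marrow stroma, stood at 9.83 and 25.4 CPM in B cells (4 and 16 UMIs, or 8.52 CPM and 4 UMIs in Mouse #2 without those barcodes) and at 704 and 960 CPM in cells rich in Adipoq, Lpl or Hp.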
